A study of Drosophila melanogaster with 15 samples.

Results

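The genes described here make up the lipid storage and lipoprotein machinery of the fly: the droplet coat proteins Lsd-1 and Lsd-2, the lipases bmm and Hsl, the triglyceride-making enzyme mdy, the hemolymph lipid carriers apolpp, Apoltp and their assembly factor Mtp, and the hormone Akh with its receptor AkhR. They were chosen by name, as genes of lipid droplets, lipolysis and hemolymph lipid transport, with earlier results of these data known. Of these 10 genes, 9 had a probeset among the 16322 on the array, and each of the 9 had exactly 1. No probeset was annotated to Hsl, which was not analysed here.

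RNA from whole heads of Drosophila melanogaster was hybridized to 15 Affymetrix Drosophila Gene ST arrays, 5 for each of 3 genotypes. The elav/v105975 flies carried both the neuron-selective elav-Gal4 driver and the UAS transgene v105975, which encodes an RNAi hairpin against Clic, the chloride intracellular channel gene of the fly. The v105975/+ flies carried the hairpin transgene with no driver, and the elav/+ flies carried the driver with no hairpin. v105975/+ and elav/+ thus differ in both transgenes. elav/v105975 and v105975/+ share the v105975 insertion, and any strain background that came with it, which elav/+ lacks. By the paper, elav/v105975 also had more copies of the marker gene mini-white than elav/+. In comparisons with elav/+, hairpin expression, the insertion, strain background and, for v105975/+, the missing driver cannot be told apart. Below, hairpin genotypes names flies with the transgene, not an effect of it. Both comparisons with elav/+ use the same 5 elav/+ arrays. The sex and age of the flies are not given in the sources used here, nor is it stated whether the replicates were separate crosses, so the p-values measure only the spread between these arrays. The driver is active in neurons, while the RNA came from every cell type of the head, so fewer cells of a type and less RNA per cell cannot be told apart in these values. A single hairpin was used.

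Flies keep triglyceride in cytoplasmic droplets of the fat body, a tissue that also lines the inside of the head capsule. Perilipins coat the droplets and gate the access of lipases, and the released diacylglycerol leaves the tissue on lipophorin, the main lipoprotein of the hemolymph, which also supplies the brain. Adipokinetic hormone, a peptide likened to mammalian glucagon, acts through its receptor on fat body cells to mobilize the store.

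All levels below are log2 intensities, in which a difference of 1 is a doubling, and each comparison is the difference of genotype means from limma, called where its p, adjusted by Benjamini-Hochberg across the whole array, was at most 0.05. As a check of the labels, Clic stood at 59.0% of the elav/+ level in elav/v105975 heads (adjusted p = 5.48e-07) and at 85.9% in v105975/+ heads (adjusted p = 0.0269). Array medians ran from 6.16 to 6.24, and each array correlated on average at 0.993 to 0.995 with the others of its genotype. Precision is limited by having 5 arrays per genotype.

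Transcripts of the droplet coat protein Lsd-1, of the lipid transfer particle gene Apoltp and of the lipophorin gene apolpp were lower in elav/v105975 than in elav/+ heads. Those 3 of the 9 genes passed the threshold and none was higher, where 9.43% of all probesets were called in either direction and 5.17% were lower. The same 3 were the ones whose 5 arrays all lay below the 5 elav/+ arrays, which held for 4.92% of all probesets. In v105975/+ heads, 2 of the 9 genes, Lsd-1 and Apoltp, passed the threshold, both lower, where 6.1% of all probesets were called in either direction and 3.47% were lower. There all 5 arrays lay below elav/+ for 3 of the 9 genes, apolpp as well, and for 3.87% of all probesets. No gene of the 9 passed between elav/v105975 and v105975/+ heads, a comparison in which limma called 0.417% of all probesets. At an unadjusted p under 0.05 that last comparison held 1 of the 9 genes, Apoltp, where 9.07% of all probesets reached that level. At that level stood 5 of the 9 genes in elav/v105975 against elav/+ and 6 in v105975/+ against elav/+, where 23.5% and 18.5% of all probesets did. The 5 elav/v105975 arrays lay wholly below the v105975/+ arrays for none of the 9 genes, and for 1.07% of all probesets. The median log2 fold change of the 9 genes was -0.15 in elav/v105975 against elav/+ and -0.15 in v105975/+ against elav/+, where the median over all probesets was -0.00 and 0.01.

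**Figure D1:**
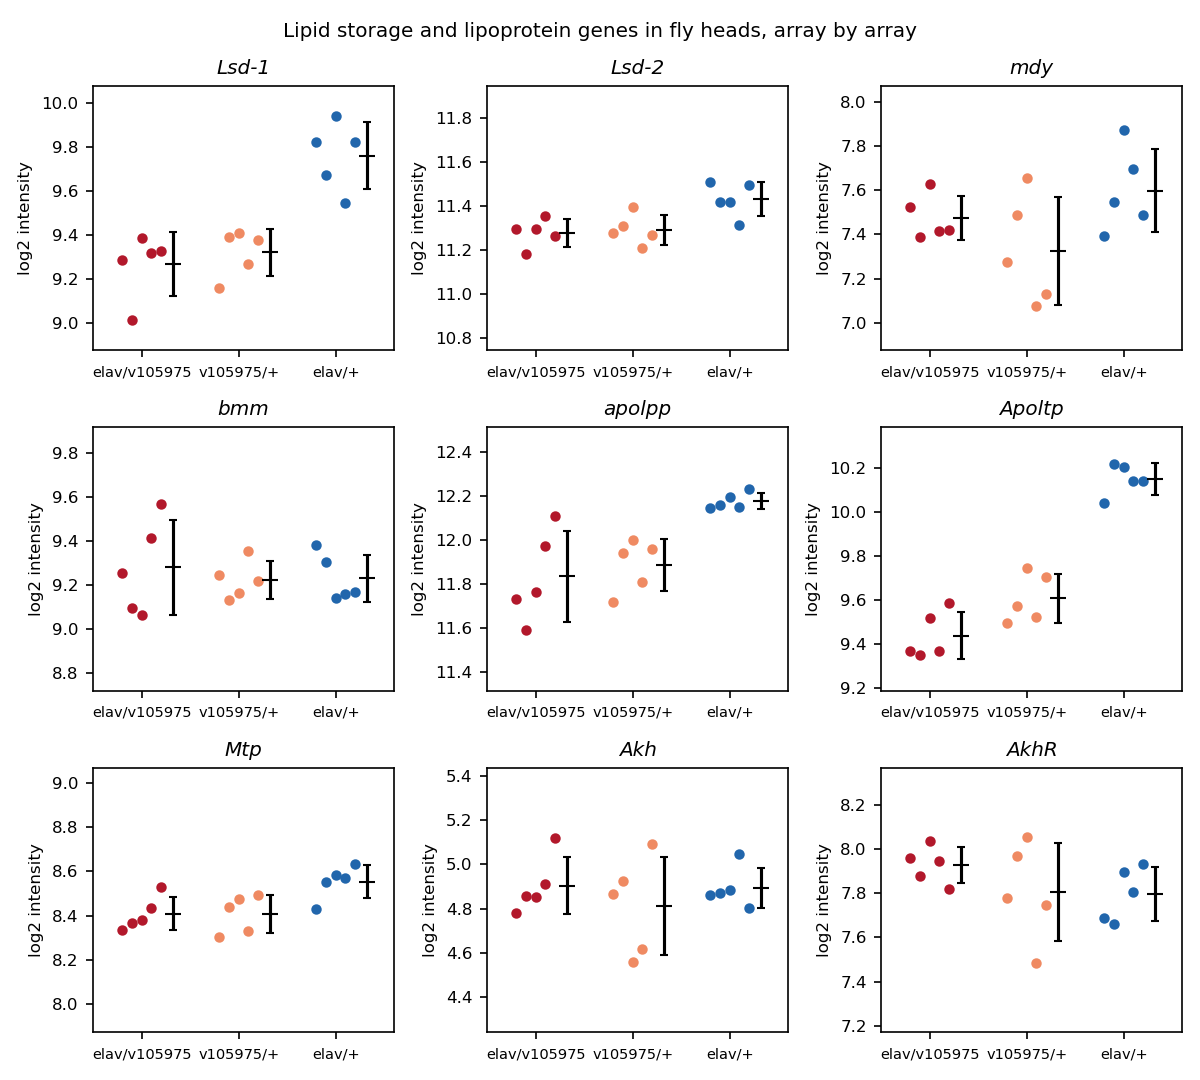
Log2 intensity (vertical axis) of the 9 lipid genes in each of the 15 arrays, grouped by genotype along the horizontal axis with replicates 1 to 5 from left to right in each group. Points are single arrays, horizontal ticks the genotype means and bars 1 SD on either side (n = 5). For Lsd-1, apolpp and Apoltp every point of both hairpin genotypes lies below every elav/+ point, and for the other genes the points overlap.

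Lsd-1 is perilipin 1, a coat protein of the droplet surface that recruits and restrains lipases. Its level was 9.29, 9.01, 9.38, 9.32 and 9.33 in elav/v105975 heads, 9.16, 9.39, 9.41, 9.27 and 9.38 in v105975/+ heads, and 9.82, 9.67, 9.94, 9.54 and 9.82 in elav/+ heads. No array of either hairpin genotype reached the lowest elav/+ array, and the hairpin genotypes overlapped each other. The means were 9.27 ± 0.146 in elav/v105975, 9.32 ± 0.106 in v105975/+ and 9.76 ± 0.153 in elav/+ (SD, n = 5 each). The level in elav/v105975 heads was therefore 71.1% of that in elav/+ heads (95% CI 62.8% to 80.5%), a log2 fold change of -0.49 ± 0.084 (SE, limma, adjusted p = 0.00182). In v105975/+ heads it was 73.8% (95% CI 65.1% to 83.6%), or -0.44 ± 0.084 (adjusted p = 0.00568). Both calls held without any single array. Between elav/v105975 and v105975/+ the difference was -0.05 (95% CI -0.23 to 0.13, adjusted p = 0.895).

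Lsd-2 is perilipin 2, the coat protein that shields the store from lipolysis. It read 11.29, 11.18, 11.30, 11.35 and 11.26 in elav/v105975 heads, 11.28, 11.31, 11.39, 11.21 and 11.27 in v105975/+ heads, and 11.51, 11.42, 11.42, 11.31 and 11.49 in elav/+ heads. In each hairpin genotype 4 of 5 arrays lay below all elav/+ arrays and the other one did not. The difference from elav/+ did not pass the threshold in elav/v105975 (-0.15 ± 0.052 SE, adjusted p = 0.0806) or in v105975/+ (-0.14, adjusted p = 0.148). The exact permutation test of the single gene, two-sided over all divisions of the 10 arrays and able to reach 0.00794 at the least, gave p = 0.0159 for each. With a prior variance that follows intensity the elav/v105975 difference passed (adjusted p = 0.0345), and after a further quantile normalization it shrank to -0.06 in elav/v105975 and -0.05 in v105975/+.

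The enzyme of triglyceride assembly did not separate the genotypes. mdy encodes midway, the diacylglycerol acyltransferase of the DGAT1 type that completes triglyceride. Its levels were 7.52, 7.39, 7.63, 7.41 and 7.42 in elav/v105975 heads, 7.28, 7.49, 7.66, 7.07 and 7.13 in v105975/+ heads, and 7.39, 7.55, 7.87, 7.70 and 7.49 in elav/+ heads. The v105975/+ arrays were the most spread (SD 0.245, against 0.10 in elav/v105975 and 0.189 in elav/+), and all 3 genotypes overlapped. The difference from elav/+ was -0.12 in elav/v105975 (adjusted p = 0.565) and -0.27 in v105975/+ (95% CI -0.51 to -0.04, adjusted p = 0.191), and neither passed.

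Nor did the lipase. bmm encodes brummer, the fly counterpart of mammalian adipose triglyceride lipase and the enzyme that starts the breakdown of stored triglyceride. It read 9.25, 9.09, 9.06, 9.41 and 9.57 in elav/v105975 heads, 9.25, 9.13, 9.16, 9.35 and 9.22 in v105975/+ heads, and 9.38, 9.30, 9.14, 9.16 and 9.17 in elav/+ heads. The elav/v105975 arrays spanned both the lowest and the highest value, with replicates 4 and 5 above every elav/+ array. The SD was 0.214 in elav/v105975, 0.087 in v105975/+ and 0.106 in elav/+. Mean differences from elav/+ were 0.05 in elav/v105975 (adjusted p = 0.806) and -0.01 in v105975/+ (adjusted p = 0.980).

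Among the hemolymph carriers, apolpp encodes apolipophorin, the precursor of both structural proteins of lipophorin. Its level was 11.73, 11.59, 11.76, 11.97 and 12.11 in elav/v105975 heads, 11.72, 11.94, 12.00, 11.81 and 11.96 in v105975/+ heads, and 12.14, 12.16, 12.20, 12.15 and 12.23 in elav/+ heads. The elav/+ arrays were tightly grouped (12.18 ± 0.037 SD) and every hairpin array lay below them, the nearest being elav/v105975 replicate 5. elav/v105975 heads held 78.9% of the elav/+ level (95% CI 69.6% to 89.5%), a log2 fold change of -0.34 ± 0.085 (SE, limma, adjusted p = 0.0204). This call was lost without elav/v105975 replicate 2, the lowest array (-0.28, adjusted p = 0.0505). In v105975/+ heads the level was 81.8% (95% CI 72.1% to 92.7%), or -0.29 ± 0.085 (adjusted p = 0.0585), just outside the threshold. The exact two-sided permutation test of that single comparison gave p = 0.00794, the smallest it can give. A fit of the v105975/+ and elav/+ arrays alone passed (adjusted p = 0.0239). The limma fit also passed without elav/v105975 replicate 2 (adjusted p = 0.0389) or 5 (adjusted p = 0.0259), whose arrays enter only through the shared spread. It did not pass on leaving out any other single array, where the adjusted p reached 0.146. The hairpin genotypes differed by -0.05 (adjusted p = 0.900).

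Apoltp gave the lowest fold changes of the 9 genes. It encodes apolipoprotein lipid transfer particle, the precursor of the particle that loads lipophorin with lipid from the gut and helps unload it. Levels of 9.37, 9.35, 9.52, 9.37 and 9.59 in elav/v105975 heads and of 9.50, 9.57, 9.74, 9.53 and 9.71 in v105975/+ heads stood against 10.04, 10.22, 10.21, 10.14 and 10.14 in elav/+ heads. Every elav/+ array lay above the highest hairpin array, v105975/+ replicate 3. The level in elav/v105975 heads was 61.1% of that in elav/+ heads (95% CI 55.5% to 67.2%), or -0.71 ± 0.065 (SE, limma, adjusted p = 8.18e-06). In v105975/+ heads it was 68.7% (95% CI 62.5% to 75.6%), or -0.54 ± 0.065 (adjusted p = 1.34e-04). Between elav/v105975 and v105975/+ the means were 9.44 ± 0.107 and 9.61 ± 0.110 (SD), a difference of -0.17 (95% CI -0.31 to -0.03) that did not pass (adjusted p = 0.433, exact two-sided permutation p = 0.0635). There, 3 of the 5 elav/v105975 arrays lay below all v105975/+ arrays and all 5 lay below the v105975/+ mean.

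Mtp encodes the microsomal triglyceride transfer protein, which lipidates both carriers as they are made. Levels were 8.34, 8.37, 8.38, 8.43 and 8.53 in elav/v105975 heads, 8.30, 8.44, 8.48, 8.33 and 8.49 in v105975/+ heads, and 8.43, 8.55, 8.58, 8.57 and 8.64 in elav/+ heads. The elav/+ arrays were the highest on average, but replicate 1 of elav/+ fell within the range of both hairpin genotypes. The difference was -0.15 in elav/v105975 (adjusted p = 0.126) and -0.15 in v105975/+ (adjusted p = 0.163), and neither passed. Between the hairpin genotypes it was 0.00.

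Of the hormone and its receptor, Akh, made by the corpora cardiaca, read 4.78, 4.86, 4.85, 4.91 and 5.12 in elav/v105975 heads, 4.86, 4.93, 4.56, 4.62 and 5.09 in v105975/+ heads, and 4.86, 4.87, 4.88, 5.05 and 4.80 in elav/+ heads. The genotypes overlapped throughout, with differences from elav/+ of 0.01 in elav/v105975 (adjusted p = 0.970) and -0.08 in v105975/+ (adjusted p = 0.736). At 4.87 over all arrays, Akh was the dimmest of the 9 genes and lay below every array median (6.16 to 6.24). With no detection call, these values do not show whether Akh stood above background in heads. AkhR, the receptor on fat body cells, read 7.96, 7.88, 8.04, 7.95 and 7.82 in elav/v105975 heads, 7.78, 7.97, 8.05, 7.48 and 7.75 in v105975/+ heads, and 7.69, 7.66, 7.90, 7.81 and 7.94 in elav/+ heads. All 5 elav/v105975 arrays lay above the elav/+ mean, replicates 2 and 5 of them within the elav/+ range, and the difference of 0.13 (95% CI -0.07 to 0.33) did not pass (adjusted p = 0.442, exact two-sided permutation p = 0.0873). In v105975/+ heads it was 0.01 (adjusted p = 0.977).

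**Figure D2:**
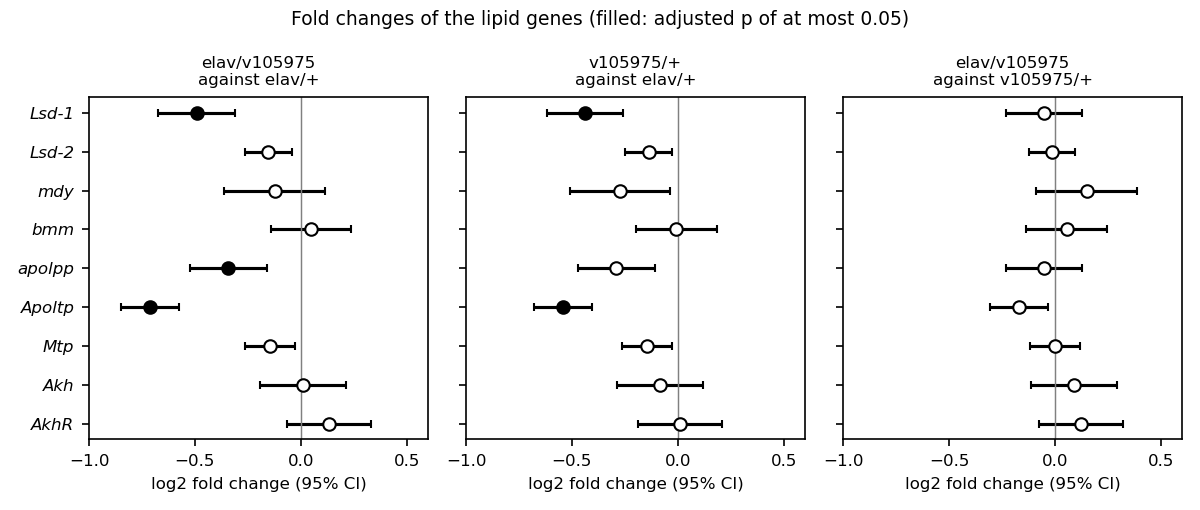
Log2 fold change (horizontal axis) of each of the 9 lipid genes (vertical axis) in the 3 comparisons, with bars for the 95% confidence interval from limma and filled points for an adjusted p of at most 0.05. Lsd-1, apolpp and Apoltp are filled on the left, Lsd-1 and Apoltp in the middle and none on the right, where Apoltp at -0.17 is the only interval that leaves out 0.

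Markers of the fat body varied between arrays. Of 12 listed fat body markers 8 had a probeset: Lsp2, Fbp1, Fbp2, Yp1, Yp2, Yp3, Tsf1 and fit, and since these values carry no detection call, none can be called absent. The mean over the 8 ranged from 8.58 to 9.62 in elav/v105975 heads, from 8.49 to 9.32 in v105975/+ heads and from 8.95 to 9.70 in elav/+ heads. Replicates 1 to 3 of both hairpin genotypes, at 8.49 to 8.86, all lay below the lowest elav/+ array, and the overlap came from their replicates 4 and 5, at 9.26 to 9.62. In elav/v105975 against elav/+ 2 of the 8 were lower, where 5.17% of all probesets were, Yp1 (-0.28, adjusted p = 0.0355) and Yp3 (-0.59, adjusted p = 0.0253), calls lost on leaving out any of 7 and any of 6 single arrays. In v105975/+ none passed with limma and 4 of the 8 had an unadjusted p under 0.05, as 18.5% of all probesets did. All 5 v105975/+ arrays lay below elav/+ for Yp1, Yp2 and Yp3, as for 3.87% of all probesets. The yolk proteins Yp1, Yp2 and Yp3 are made in the female fat body. In a list of 8 sex-related genes, which holds them and fit as well, 3 were lower in elav/v105975 (Yp1, Yp3 and roX1) and 1 in v105975/+ (roX1). Over all probesets 5.17% and 3.47% were lower in these comparisons. roX1, a non-coding RNA of the male dosage compensation complex, differed by -0.73 in elav/v105975 (adjusted p = 0.00261) and -0.71 in v105975/+ (adjusted p = 0.00449). The other dosage and sex determination genes of the list did not pass in elav/v105975, with roX2 at -0.10 (adjusted p = 0.665), msl-2 at 0.06 (adjusted p = 0.453) and Sxl at 0.04 (adjusted p = 0.658), nor in v105975/+.

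The lipid genes followed these markers to unequal degrees. As deviations from the genotype mean over the 15 arrays, the Pearson r with Yp1 was 0.94 for bmm, 0.51 for apolpp, 0.05 for Lsd-1 and 0.03 for Apoltp. With Yp3 it was 0.81 for bmm, 0.75 for apolpp, 0.25 for Lsd-1 and 0.24 for Apoltp. Within elav/v105975, replicates 4 and 5 were the highest in both bmm and Yp1. Over all 15 arrays, genotype differences included, bmm had an r of 0.54 with Yp1. mdy ran the other way, with -0.73 against Lsp2, a larval serum protein gene. These values describe 15 arrays that share one normalization.

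With the mean of the 8 fat body markers as a covariate in limma, chosen after seeing the data, the elav/v105975 difference was -0.48 for Lsd-1 (adjusted p = 0.00313), -0.30 for apolpp (adjusted p = 0.0271) and -0.71 for Apoltp (adjusted p = 2.66e-05). The v105975/+ difference was -0.42 for Lsd-1 (adjusted p = 0.0165) and -0.54 for Apoltp (adjusted p = 5.23e-04), and mdy passed there at -0.41 (adjusted p = 0.0225). All 5 calls made without the covariate were kept with it. Within genotypes, the r with that mean was 0.15 for Lsd-1, 0.49 for apolpp and -0.0016 for Apoltp. The covariate could therefore move Lsd-1 and Apoltp only little, and the part of fat body content in these differences was not tested. That mean was itself lower on average in the hairpin genotypes, at 9.04 ± 0.465 (SD) in elav/v105975 and 8.86 ± 0.394 in v105975/+, against 9.28 ± 0.291 in elav/+. Lsp2 was the most spread of its 8 markers, with an SD of 1.18 in elav/v105975, 1.48 in v105975/+ and 1.41 in elav/+. With the mean of Yp1, Yp2 and Yp3 instead, which also differs between the genotypes, calls changed for Lsd-1, apolpp and bmm. Apoltp stayed at -0.68 in elav/v105975 (adjusted p = 7.75e-04) and -0.51 in v105975/+ (adjusted p = 0.00483). Lsd-1 stayed at -0.44 in elav/v105975 (adjusted p = 0.0400) but missed the threshold at -0.39 in v105975/+ (adjusted p = 0.0811). apolpp shrank to -0.15 in elav/v105975 (adjusted p = 0.425), and bmm passed as higher, at 0.33 (adjusted p = 0.0141).

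**Figure D3:**
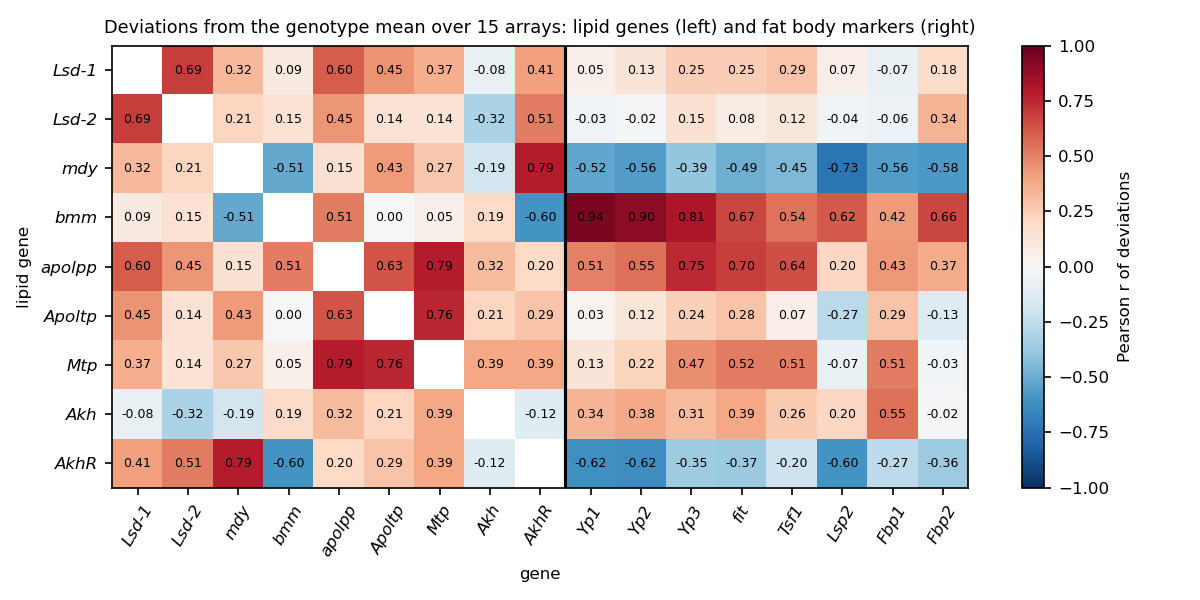
Pearson r (colour scale from -1 to 1) between the deviations from the genotype mean of the 9 lipid genes (rows) and of the same genes and 8 fat body markers (columns) over 15 arrays. bmm is high with the yolk protein genes (0.94 with Yp1), apolpp and Apoltp are high with Mtp (0.79 and 0.76), and mdy is high with AkhR (0.79).

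Some markers of other cell types were called as well, where 9.43% of all probesets were called in elav/v105975 and 6.1% in v105975/+ against elav/+. Of 7 measured neuron markers, Syn, Rbp9 (a call lost for any of 12 arrays) and futsch were higher in elav/v105975 and Syn in v105975/+, and the mean over the 7 ranged from 10.31 to 10.41 in elav/v105975, from 10.26 to 10.39 in v105975/+ and from 10.15 to 10.28 in elav/+. Of 7 glia markers, wrapper was higher in both hairpin genotypes and Indy was lower in elav/v105975. Of 5 photoreceptor markers, trp was higher in both. Of 8 listed hemocyte markers only Nplp2 was called, lower in both, in v105975/+ a call lost for any of 9 arrays. The other 7 were not called, and Nplp2 was among the genes most like apolpp (r = 0.97 over the 15 arrays). Of 3 genes listed as corpora cardiaca markers only Lst was called, lower in both, while Akh and gl were not. With Akh at 4.87 over all arrays, these values do not show whether the Lst signal came from the corpora cardiaca. Of 5 muscle markers none was called with limma. An unadjusted p under 0.05 was reached by 2 in elav/v105975 and 1 in v105975/+, where 23.5% and 18.5% of all probesets did. The part of these other cell types in the lipid gene results was not tested.

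Array by array, the carriers and their assembly factor ran together, but apolpp ran closer to genes outside the 9. Among the 36 pairs of the 9 genes the within-genotype r ranged from -0.60 for bmm with AkhR to 0.79 for apolpp with Mtp, with a median of 0.28 and 30 pairs above 0. Apoltp had 0.76 with Mtp and 0.63 with apolpp, and Lsd-1 had 0.69 with Lsd-2 and 0.60 with apolpp. mdy had 0.79 with AkhR. Over all 15 arrays, genotype differences included, the genes most like Lsd-1 were Echs1, an enoyl-CoA hydratase of fatty acid oxidation (r = 0.95), CG43402 (0.94) and Paics, an enzyme of purine synthesis (0.94). Those most like Apoltp were bgm, a very long chain acyl-CoA synthetase (0.96), Idgf1, a chitinase-like growth factor (0.96), and fon, a clotting protein of the hemolymph (0.95). apolpp lay nearest to lncRNA:CR33942 (0.97), Nplp2 (0.97) and CG2233 (0.96), and Lsd-2 to CG15098 (0.91), Lsd-1 (0.87) and CG33494 (0.87). Nearest to bmm were vkg, a collagen IV chain (0.85), Men, the malic enzyme (0.81), and rdgA (0.79). Within genotypes, apolpp had 0.94 with lncRNA:CR33942 and with Nplp2 and 0.91 with CG2233, above its 0.79 with Mtp. Apoltp had 0.625 with bgm and 0.59 with Idgf1 and with fon, below its 0.76 with Mtp.

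The wider lipid metabolism was read from 5 lists with 112 measured genes. In elav/v105975 against elav/+ 8 of them were higher and 12 lower, where 9.43% of all probesets were called, and in v105975/+ 4 were higher and 11 lower, where 6.1% were called. Between elav/v105975 and v105975/+ none of the 112 passed with limma, where 0.417% of all probesets did. An unadjusted p under 0.05 was reached by 10 of the 112 and by 9.07% of all probesets. The median log2 fold change of the 112 genes was -0.03 in elav/v105975 and -0.02 in v105975/+. Without elav/+ replicate 3 the called genes numbered 13 in elav/v105975 and 8 in v105975/+. The v105975/+ count was also 8 without elav/+ replicate 5 or v105975/+ replicate 1 and 9 without v105975/+ replicate 4. The share of all probesets called in those fits was not computed.

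Most genes of lipid synthesis were not called. Of 23 measured, 17 did not pass in elav/v105975 and 20 in v105975/+, the list median was 0.00 and -0.01, and 9.43% and 6.1% of all probesets were called. FASN3, ATPCL, Agpat1, Fatp3 and Gpdh1 were higher in elav/v105975 and S1P, the protease that activates SREBP, was lower, while in v105975/+ Agpat1 and Gpdh1 were higher and Dgat2 was lower. The call of ATPCL was lost without elav/+ replicate 3, that of FASN3 on leaving out any of 9 arrays, and those of Agpat1 and Dgat2 in v105975/+ any of 11 each. Gpdh1, which makes the glycerol 3-phosphate backbone, read 11.41, 11.42, 11.40, 11.57 and 11.49 in elav/v105975 heads, 11.34, 11.39, 11.40, 11.48 and 11.50 in v105975/+ heads, and 11.26, 11.10, 11.13, 11.19 and 11.20 in elav/+ heads. Every hairpin array lay above every elav/+ array, with differences of 0.28 ± 0.051 (SE, adjusted p = 0.00269) and 0.25 ± 0.051 (adjusted p = 0.00917) in elav/v105975 and v105975/+. The rate-setting enzymes ACC (-0.22, adjusted p = 0.10) and FASN1 (0.09, adjusted p = 0.658) did not pass in elav/v105975.

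Among 22 further droplet and lipase genes, 1 was called, lower in both hairpin genotypes, where 5.17% of all probesets were lower in elav/v105975 and 3.47% in v105975/+. dob, or doppelganger von brummer, is the closest relative of bmm. It read 6.29, 6.34, 6.28, 6.58 and 6.59 in elav/v105975 heads, 6.24, 6.37, 6.59, 6.59 and 6.52 in v105975/+ heads, and 6.70, 6.79, 6.97, 6.83 and 7.12 in elav/+ heads. No hairpin array reached an elav/+ array, and the differences were -0.47 ± 0.095 (SE, adjusted p = 0.00618) in elav/v105975 and -0.42 ± 0.095 (adjusted p = 0.0165) in v105975/+. Its paralogue bmm overlapped between the genotypes, as given above. The droplet proteins Jabba (-0.15, adjusted p = 0.304) and Seipin (0.11, adjusted p = 0.390) did not pass in elav/v105975.

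Of 19 measured genes of fatty acid oxidation, CPT2, scu, Echs1, wal and yip2 were lower in elav/v105975, where 5.17% of all probesets were lower, and 14 were not called. The list median was -0.13 in elav/v105975 and -0.05 in v105975/+. In v105975/+ heads CG7461, scu and Echs1 were lower, where 3.47% of all probesets were, and Acox57D-d, a peroxisomal acyl-CoA oxidase, was higher (0.46, adjusted p = 0.00321). Echs1 read 6.49, 6.40, 6.55, 6.58 and 6.63 in elav/v105975 heads, 6.54, 6.76, 6.72, 6.59 and 6.69 in v105975/+ heads, and 7.08, 6.96, 7.35, 7.09 and 7.18 in elav/+ heads. All hairpin arrays lay below all elav/+ arrays, by -0.60 ± 0.071 (SE, adjusted p = 9.54e-05) in elav/v105975 and -0.47 ± 0.071 (adjusted p = 0.00110) in v105975/+. The call of CPT2, the inner membrane carnitine palmitoyltransferase, in elav/v105975 (-0.28, adjusted p = 0.0249) was lost without elav/+ replicate 3 or 5 or elav/v105975 replicate 2 or 3, those of wal and yip2 on leaving out any of 9 and any of 11 arrays, and those of scu and CG7461 in v105975/+ any of 5 each. whd, the outer membrane carnitine palmitoyltransferase, did not pass in elav/v105975 (-0.11, adjusted p = 0.190).

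Among 21 genes of lipid carriers, receptors and uptake 18 were not called in elav/v105975 and 19 in v105975/+, where 9.43% and 6.1% of all probesets were called. The lipophorin receptors were among those not called. LpR1 differed by 0.00 and LpR2 by 0.12 in elav/v105975 against elav/+ (adjusted p = 0.992 and 0.183). cv-d, a further lipoprotein of the vitellogenin family, was lower in both hairpin genotypes, ranging from 7.99 to 8.17 in elav/v105975 heads and from 8.02 to 8.21 in v105975/+ heads, against 8.35 to 8.61 in elav/+ heads, so that neither reached an elav/+ array. The differences were -0.38 ± 0.059 (SE, adjusted p = 8.20e-04) and -0.36 ± 0.059 (adjusted p = 0.00180). Npc2h, a sterol-binding protein of the NPC2 family, fell by 0.59 in elav/v105975 (adjusted p = 9.67e-04), and its call in v105975/+ (-0.35, adjusted p = 0.0414) was lost on leaving out any of 12 of the 15 arrays. Npc1a, a sterol-trafficking membrane protein, was higher in elav/v105975 (0.13, adjusted p = 0.0333), a call that was likewise lost for any of 8 arrays.

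Of 27 genes of adipokinetic hormone signalling and fat regulation, amon and Galphaq were higher in elav/v105975 and Lst, ImpL2 and daw lower, and in v105975/+ amon was higher and Lst, ImpL2, Mlx and daw lower. In each comparison with elav/+ 22 of the 27 were not called, where 9.43% of all probesets were called in elav/v105975 and 6.1% in v105975/+. amon, the prohormone convertase that processes neuropeptides including Akh, read 8.93, 8.86, 8.84, 8.94 and 8.98 in elav/v105975 heads, 8.87, 8.82, 8.80, 8.85 and 8.80 in v105975/+ heads, and 8.62, 8.48, 8.62, 8.65 and 8.65 in elav/+ heads. Every hairpin array lay above every elav/+ array, by 0.31 ± 0.046 (SE, adjusted p = 6.13e-04) in elav/v105975 and 0.22 ± 0.046 (adjusted p = 0.00878) in v105975/+. Lst, or limostatin, a peptide that restrains insulin release, read 8.43, 8.30, 8.53, 8.67 and 8.86 in elav/v105975 heads, 8.66, 9.05, 8.97, 8.84 and 8.91 in v105975/+ heads, and 9.26, 9.13, 9.30, 9.30 and 9.22 in elav/+ heads. It was -0.68 ± 0.095 (SE, adjusted p = 3.55e-04) in elav/v105975, and the call in v105975/+ (-0.35, adjusted p = 0.0412) was lost for any of 9 arrays. The calls of Galphaq in elav/v105975 and Mlx in v105975/+ were lost for any of 8 and any of 11. daw, an activin-type ligand, differed by -0.45 in elav/v105975 (adjusted p = 0.00620) and -0.56 in v105975/+ (adjusted p = 0.00191). ImpL2 differed by -0.98 in elav/v105975 (adjusted p = 6.90e-05) and -1.04 in v105975/+ (adjusted p = 4.55e-05), with every hairpin array below every elav/+ array.

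**Figure D4:**
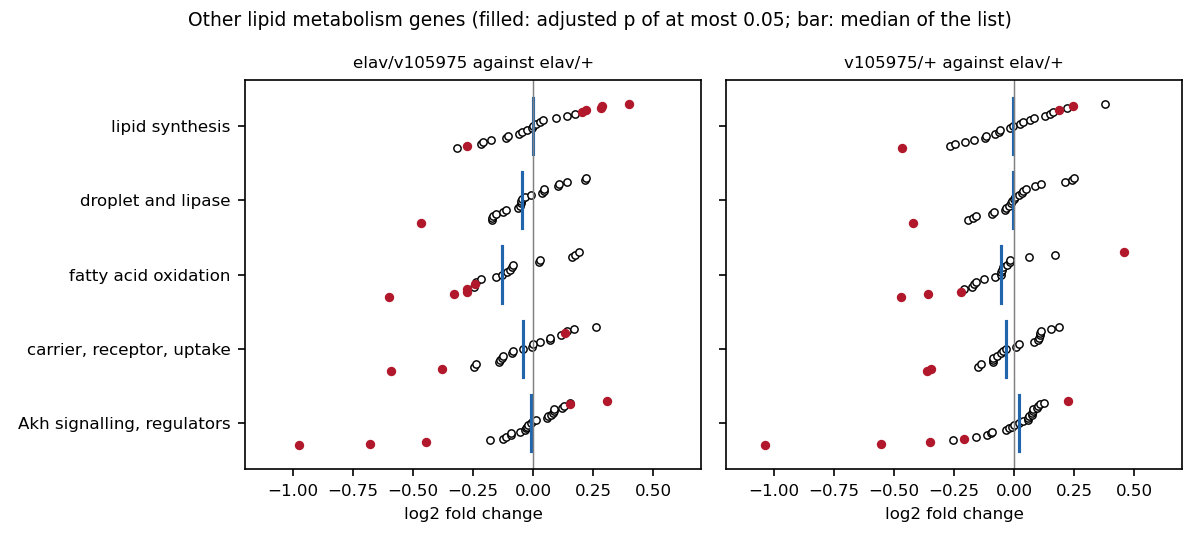
Log2 fold change (horizontal axis) of the 112 measured genes of lipid metabolism in 5 lists (rows), in elav/v105975 against elav/+ on the left and v105975/+ against elav/+ on the right. Each point is a gene, filled points have an adjusted p of at most 0.05 from limma, and vertical bars mark the median of each list, which is lowest for fatty acid oxidation on the left (-0.13).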

How the data were processed

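RNA from whole fly heads of 3 genotypes was hybridized to 15 Affymetrix Drosophila Gene ST arrays, grouped by the submitters' labels. The authors deposited 1 log2 intensity for each probeset and array, made by RMA (background correction, quantile normalization and a summary over probes). Their processing notes, as submitted, name oligo 1.44.0. Quantile normalization hides a change shared by most transcripts.

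No normalization was added. The 16322 probesets were fitted together in limma 3.58.1 (R 4.3.3) with lmFit, 1 mean per genotype over the 15 arrays, contrasts.fit and a default eBayes. Within a comparison, p-values were adjusted by Benjamini-Hochberg across the array, and 0.05 was the threshold. Percent levels are derived from the log2 fold change. Exact permutation tests enumerated every division of the 10 arrays compared. The fit was tested on simulated data with known changes.

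Names came from the platform annotation (13441 probesets with 1 symbol, 555 with several, 2326 with none) with symbols brought up to date by Entrez identifier, which matched 13064 of them to RefSeq. The genes and lists were chosen with earlier results of these data known. A listed gene with several probesets was read from its brightest one. The genes set for naming were all listed lipid genes, up to 4 genes of each list with the smallest p, and marker genes with a level given. Added to them were the 3 genes with the highest correlation with each lipid gene among 6563 probesets above the median level. Of these, CG2254, Fitm and emp, called in no comparison, are not described, nor are the genes nearest to mdy, Mtp, Akh and AkhR. Other called genes of the lists, with ACC, FASN1, Jabba, Seipin, whd, LpR1 and LpR2, were named after their values were seen.

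Alternatives were the fit of the compared genotypes alone, a term for the replicate number (block), array weights, a robust or intensity-dependent prior variance, a filter removing the dimmest 25% of probesets, adjustment over probesets with 1 symbol only, quantile normalization repeated, arrays centred on their medians, a stricter adjusted p of 0.01, a 1.5-fold minimum and the removal of each array. The 2 covariates were added after seeing the data.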

Additional observations from a re-analysis of the deposited data

Results flagged for a closer look

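Single arrays stood apart from the other 4 of their genotype for 7 of 87 groups of 5 arrays examined, by a gap of over 0.71 of the range of the group. Chance gives about 1 in 20 such groups. Lsd-1 was at 9.01 in elav/v105975 replicate 2 (others 9.29 to 9.38). amon was at 8.48 in elav/+ replicate 2 (others 8.62 to 8.65), and Agpat1 was at 9.81 in elav/+ replicate 1 (others 9.62 to 9.66). In v105975/+ replicate 3, Npc2h was at 7.82 (others 7.38 to 7.50), daw at 8.56 (others 8.31 to 8.37) and inaE, a diacylglycerol lipase gene, at 8.69 (others 8.57 to 8.58). CG7461 was at 8.76 in v105975/+ replicate 1 (others 9.03 to 9.14).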

How the results depend on the processing

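Requiring a change of at least 1.5-fold left 1 of the 3 called lipid genes in elav/v105975 against elav/+ and 0 of 2 in v105975/+, where limma called 2 at the adjusted p alone and 6 had an unadjusted p under 0.05. Among the 112 wider genes that requirement left 4 and 1 in the same comparisons, and an adjusted p of 0.01 left 10 and 7. With the yolk protein covariate 13 and 7 of the 112 were called, and 1 lipid gene in v105975/+. Without single arrays the lipid gene calls ranged from 2 to 3 in elav/v105975 and from 2 to 3 in v105975/+, and the wider calls from 13 to 22 and from 8 to 15. Apoltp passed in both comparisons with elav/+ at an adjusted p of 0.05 under every alternative other than the 1.5-fold requirement, which it missed in v105975/+. The share of all probesets called was not computed under these alternatives. These counts therefore do not show whether the lipid genes moved differently from the rest of the array. The cause of these shifts was not tested.

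Sign changes were confined to differences that did not pass. In elav/v105975 against elav/+, Akh was -0.020 with array weights and -0.044 to 0.048 without single arrays, bmm was -0.024 to 0.10 without single arrays and AkhR was -0.039 with the yolk protein covariate. In v105975/+ against elav/+, bmm was 0.0037 after centring on medians, 0.11 and 0.25 with the fat body and yolk protein covariates and -0.041 to 0.030 without single arrays, AkhR was -0.078 and -0.15 with those covariates and -0.053 to 0.090 without single arrays, and Akh was 0.029 with the yolk protein covariate. In elav/v105975 against v105975/+, leaving out single arrays gave -0.094 to 0.0095 for Lsd-1, -0.034 to 0.011 for Lsd-2, -0.016 to 0.11 for bmm, -0.12 to 0.0089 for apolpp and -0.030 to 0.021 for Mtp, and Mtp was -0.027 with array weights and -0.0086 with the fat body covariate.

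The shared replicate numbers gave no clear pairing of the arrays: deviations of same-numbered arrays correlated at -0.08 to 0.18. Between elav/v105975 and v105975/+ the same-number r, 0.0065 to 0.091, was above the mean r with other numbers for each replicate. With the replicate number as a block, 3 lipid genes were called in elav/v105975 against elav/+, 2 in v105975/+ and 0 between the hairpin genotypes, and 18, 11 and 0 of the 112 wider genes. In only 2 of 15 checks, each of 1 replicate number in 1 comparison, was the same number the best match. The block changed no lipid gene call, and the share of all probesets called with it was not computed. The values used hold no background signal or detection call, so signal over background could not be set against any of these results.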
